A study of Arabidopsis thaliana with 12 samples.

Results

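Evening clock genes are the part of the Arabidopsis (Arabidopsis thaliana) circadian clock whose transcripts are highest late in the day. The 10 genes described here were taken by identifier: the pseudo-response regulators TOC1 (AT5G61380), PRR5 (AT5G24470) and PRR3 (AT5G60100), GI (AT1G22770), the F-box protein genes FKF1 (AT1G68050) and ZTL (AT5G57360), and ELF3 (AT2G25930), ELF4 (AT2G40080), LUX (AT3G46640) and BOA (AT5G59570). All 10 were among the 20814 genes of the expression table and all 10 passed the filter on low values. RNA came from roots of wild-type seedlings that grew for 4 d at 22°C on diluted MS medium and then spent 3 d on fresh medium with 5 µM BiAux, 10 nM IAA, 5 µM BiAux and 10 nM IAA together, or neither compound (mock), with 3 libraries in each of the 4 groups. IAA is indole-3-acetic acid, the main natural auxin, and BiAux is a synthetic compound that joins a pair of methyl-esterified IAA units to a sugar; no transgene or mutant was used in these libraries. By the study's general methods, roots were kept in darkness unless stated otherwise, and its account of these libraries does not mention light. The hour at which the roots were harvested is not given in the sources used here. A difference in that hour between groups cannot be told apart from the treatments.

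In the Arabidopsis clock, the morning factors CCA1 and LHY bind the evening element, a short promoter motif, and repress evening genes, whereas TOC1 and the other pseudo-response regulators repress CCA1 and LHY. ELF3, ELF4 and LUX form the evening complex, a night-time transcriptional repressor, and BOA is a close relative of LUX. ZTL and FKF1 are blue-light receptors that are also F-box proteins: ZTL marks TOC1 and PRR5 for degradation, FKF1 does so for the CDF repressors of flowering genes, and GI binds both. PRR3 protects the TOC1 protein from ZTL. ZTL is known as the member whose transcript cycles least.

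The 300 bases before the annotated start of each gene were searched on either strand for motifs of the clock. The evening element (AAAATATCT, or AGATATTTT when read on the other strand) was found upstream of FKF1, PRR5, TOC1, LUX and BOA, thus of 5 of the 10 members, and upstream of 2.79% of 27443 protein-coding genes of the nuclear chromosomes. PRR5 carried this motif at a pair of places, with a CCA1-binding site (AAAAATCT, in 7.94% of all these regions) between them. A LUX-binding site (GATACG, in 5.51%) lay upstream of ELF3 and ELF4, and a G-box (CACGTG, in 7.09%) upstream of LUX and BOA. No match to GATTCG, another form of the LUX-binding site (9.34%), or to the auxin response element TGTCTC (13.0%) was found upstream of any member, which says only that these letters are not in these windows. A match of letters is a description and shows no binding. The 5 regions with an evening element are printed from the RefSeq copy of TAIR10.1, 5′ to 3′ on the strand of the gene and ending at the base before its start, because 4 of these genes were called higher than mock in the libraries labelled IAA and the fifth, BOA, was not; capitals mark the evening element on either strand.
FKF1 (chr1:25508339-25508638, plus strand): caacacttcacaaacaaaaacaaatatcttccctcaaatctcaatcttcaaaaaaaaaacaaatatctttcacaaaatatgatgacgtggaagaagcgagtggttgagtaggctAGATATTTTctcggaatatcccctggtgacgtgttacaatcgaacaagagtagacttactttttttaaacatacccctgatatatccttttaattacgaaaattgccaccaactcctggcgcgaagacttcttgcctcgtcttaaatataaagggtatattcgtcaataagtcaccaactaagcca
PRR5 (chr5:8358547-8358846, minus strand): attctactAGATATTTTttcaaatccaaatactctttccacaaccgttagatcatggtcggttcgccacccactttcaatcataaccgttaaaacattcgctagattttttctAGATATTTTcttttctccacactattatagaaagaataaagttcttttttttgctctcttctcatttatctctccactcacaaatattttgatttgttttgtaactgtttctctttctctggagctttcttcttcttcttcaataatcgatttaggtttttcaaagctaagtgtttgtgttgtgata
TOC1 (chr5:24674663-24674962, plus strand): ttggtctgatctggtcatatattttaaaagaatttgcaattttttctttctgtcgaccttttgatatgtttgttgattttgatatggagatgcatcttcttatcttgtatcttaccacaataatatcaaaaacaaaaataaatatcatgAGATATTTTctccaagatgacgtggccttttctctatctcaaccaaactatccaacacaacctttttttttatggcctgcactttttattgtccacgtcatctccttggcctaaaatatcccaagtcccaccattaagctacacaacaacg
LUX (chr3:17182742-17183041, plus strand): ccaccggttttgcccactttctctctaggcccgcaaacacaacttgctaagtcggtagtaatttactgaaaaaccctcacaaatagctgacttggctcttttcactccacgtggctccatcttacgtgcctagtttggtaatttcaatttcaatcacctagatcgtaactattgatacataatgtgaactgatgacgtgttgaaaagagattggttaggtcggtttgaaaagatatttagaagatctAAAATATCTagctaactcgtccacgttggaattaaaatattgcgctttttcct
BOA (chr5:24003588-24003887, plus strand): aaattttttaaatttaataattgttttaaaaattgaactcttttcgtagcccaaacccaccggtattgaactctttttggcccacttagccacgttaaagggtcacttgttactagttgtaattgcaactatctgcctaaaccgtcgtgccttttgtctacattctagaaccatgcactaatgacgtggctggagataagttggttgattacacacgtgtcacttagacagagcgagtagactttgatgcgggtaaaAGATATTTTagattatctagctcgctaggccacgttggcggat
No annotated gene overlapped these 5 regions. The evening element lay between 178 and 186 bases before the start of FKF1, between 143 and 151 bases before that of TOC1, and closer to the start in LUX (45 to 53 bases) and BOA (35 to 43 bases).

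**Figure D1:**
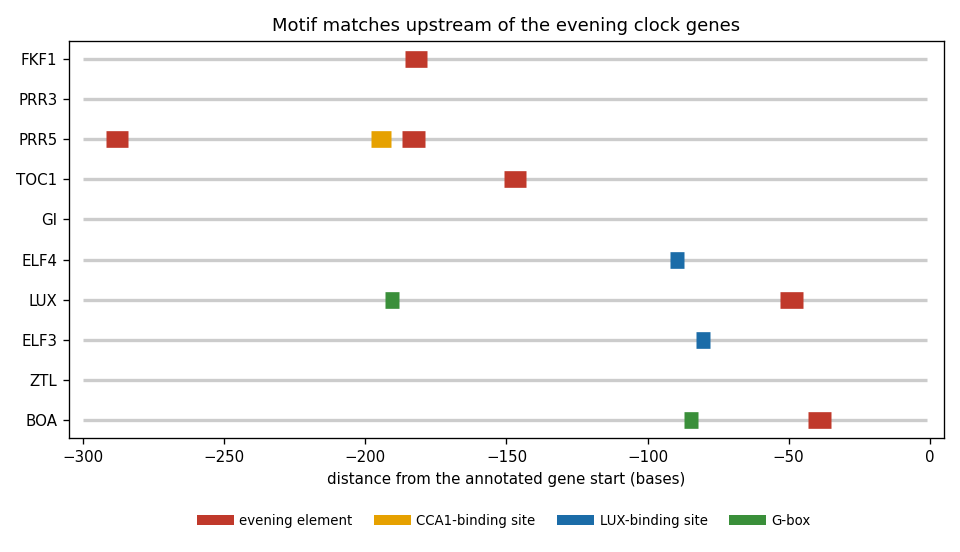
Motif matches in the 300 bases upstream of the 10 evening clock genes, plotted by distance from the annotated gene start in bases, with 1 line per gene and a colour per motif. Evening elements stand in FKF1, PRR5, TOC1, LUX and BOA, and LUX-binding sites in ELF4 and ELF3.

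The expression values are normalized counts, which summed to between 32413978 and 32720463 per library. The study gives a nominal read number for its libraries, but not how many reads were counted in each. No counting error is given. Root marker genes were present, with 9 of 10 in the table and none of these at 0. The leaf marker genes, of which 5 of 8 were in the table, summed to between 894 and 1487 normalized counts per library. The root markers summed to at least 352029, but most of this was PYK10, which alone had between 336208 and 522473. The other root markers ranged from 74 (WOX5, BiAux+IAA 3) to 14441 (CASP1, mock 1). Single leaf markers ranged from 14 (LHCB2.1, IAA 1) to 806 (RCA, mock 1). The leaf markers summed to between 932 and 970 in the libraries labelled BiAux, between 894 and 1318 in those labelled IAA, between 901 and 1177 in those labelled BiAux+IAA and between 1383 and 1487 in mock, and the part of this difference in the results was not tested. The treatment field of the sample labels names another treatment than the title for 7 of the 12 libraries. Groups follow the titles, which the columns of the table repeat, but the sources used here are not at one on which of the libraries titled BiAux and IAA received which compound. The titles are therefore used as names of libraries, and which compound each group received rests on them. The auxin response genes checked beside them summed to between 4028 and 4661 normalized counts in the libraries labelled BiAux, between 5888 and 6451 in those labelled IAA, between 4309 and 4431 in those labelled BiAux+IAA and between 5374 and 6107 in mock. In bulk roots, fewer cells that express a gene and less RNA per cell cannot be told apart.

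In mock roots, levels of the evening clock genes spanned a wide range. Per kb of annotated exon, GI was highest at 25.9 ± 3.71 normalized CPM (counts scaled to a common total; SD, n = 3), and TOC1 (23.0 ± 2.26), ELF3 (22.7 ± 3.58) and ELF4 (22.6 ± 3.96) overlapped with it. PRR5 (18.1 ± 2.05), ZTL (14.0 ± 1.93) and LUX (7.69 ± 0.541) followed, and FKF1 (1.97 ± 0.355), BOA (1.29 ± 0.250) and PRR3 (0.970 ± 0.306) were lowest, with BOA and PRR3 overlapping. The length counts every annotated exon base of a gene, so places on this scale rest partly on the annotation. LUX has 3916 such bases and PRR5 1677, while their mock means were 981 and 989 normalized counts. In the libraries labelled IAA, ELF4 (40.2 ± 2.05) and GI (40.1 ± 0.693) stood highest on this scale, TOC1 reached 38.2 ± 1.49 and PRR5 36.4 ± 0.604. FKF1 stood there at 7.57 ± 0.760 and PRR3 at 2.40 ± 0.0836, above BOA at 1.50 ± 0.183 with no overlap.

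**Figure D2:**
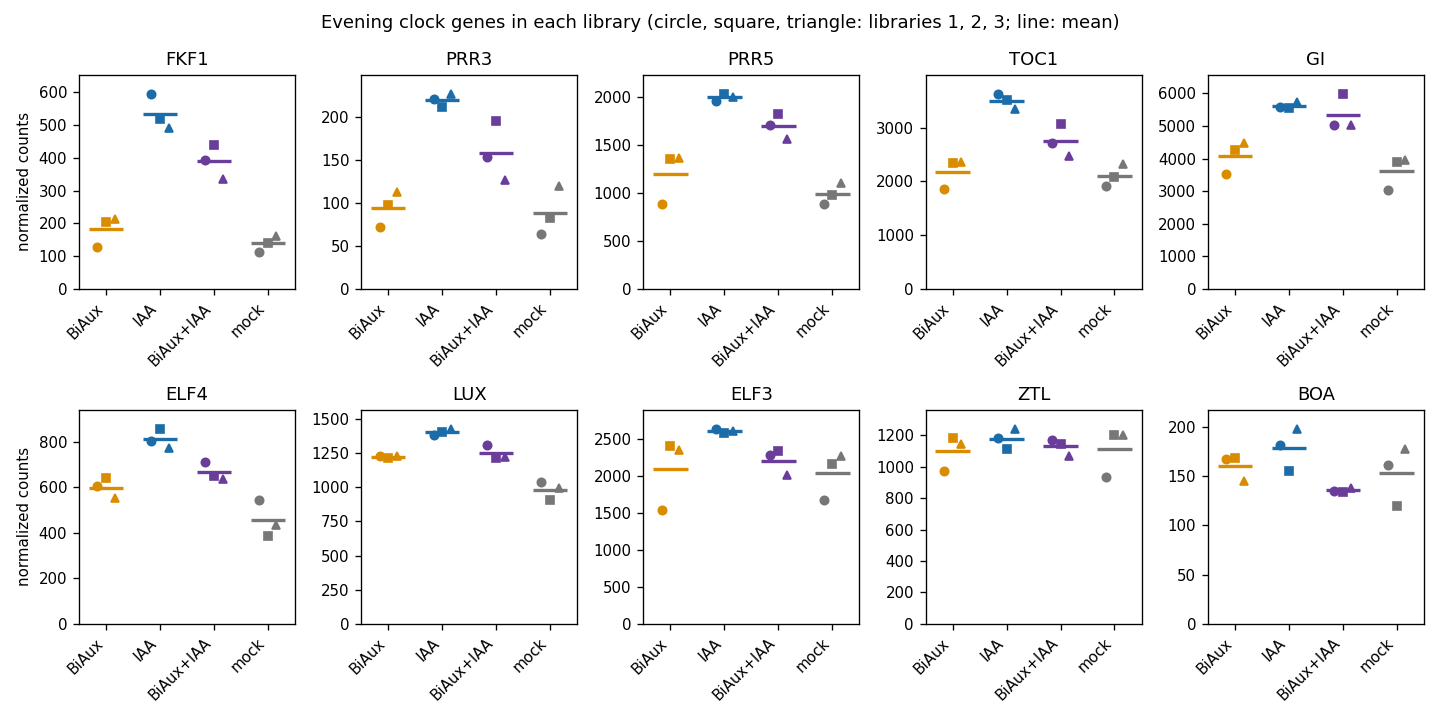
Normalized counts of the 10 evening clock genes in each of the 12 libraries, with the linear axis of each panel starting at 0; points are libraries and lines are group means. All 3 libraries labelled IAA lie above all mock libraries except for ZTL and BOA, and libraries labelled BiAux overlap mock except for ELF4 and LUX.

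Most evening clock genes rose in the IAA-labelled roots, where 7 of 10 were called higher than mock and none lower. The call rule asked for a raw limma p below 0.05 together with a change of more than 0.5 in either direction on the log2(value + 16.3) scale; by this rule 1.29% of the 19338 tested genes were higher. The median log2 fold change of the 10 members was 0.68, compared with 0.004 over all genes tested. After Benjamini-Hochberg adjustment over all genes, FKF1, PRR5 and TOC1 passed 0.05, as did 0.119% of all genes among the higher ones. In 8 of 10 members every IAA-labelled library lay above every mock library, as was the case for 12.1% of all genes.

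Among the pseudo-response regulators, TOC1, a core repressor of the clock, had 3620, 3506 and 3349 normalized counts in IAA 1, 2 and 3, and 1910, 2086 and 2322 in mock 1, 2 and 3. The groups did not overlap, and TOC1 rose by 0.73 on the log2 scale (standard error 0.09, limma adjusted p = 0.0343). PRR5, which acts next to TOC1 in repressing the morning genes, had 1958, 2024 and 1991 normalized counts in the libraries labelled IAA and 884, 977 and 1107 in mock. All IAA-labelled libraries stood far above mock and close to each other, and the rise was 1.00 (standard error 0.10, adjusted p = 0.0137 by limma). PRR3, which shields TOC1 from ZTL, had the lowest level per kb in mock but showed 221, 211 and 226 normalized counts in the IAA-labelled libraries against 64, 83 and 119 in mock. Its log2 fold change of 1.20 (standard error 0.19) was the second largest of the 10 members, with an unadjusted p of 0.000191 and a limma adjusted p = 0.0552.

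FKF1 showed the largest change of the 10. It stood at 594, 519 and 490 normalized counts in the libraries labelled IAA, against 113, 141 and 163 in mock. The lowest IAA-labelled library was thus far above the highest mock library, and FKF1 rose 3.57-fold (1.83 ± 0.15, standard error, on the log2 scale, with adjusted p = 0.00753 by limma). GI, the scaffold that binds FKF1 and ZTL, had 5579, 5552 and 5732 normalized counts in the libraries labelled IAA and 3033, 3909 and 3958 in mock, without overlap. GI was called higher, by 0.64 (standard error 0.11, limma adjusted p = 0.0642). ZTL, the F-box partner of GI that degrades TOC1 and PRR5, had 1181, 1110 and 1239 normalized counts in the IAA-labelled libraries and 936, 1200 and 1204 in mock. Its groups overlapped, and the log2 fold change was 0.09 with a 95% confidence interval from -0.18 to 0.35. The difference between FKF1 and its relative ZTL was not tested.

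Of the evening complex, ELF4, a small cofactor of the complex, had 801, 855 and 774 normalized counts in the libraries labelled IAA and 543, 387 and 435 in mock. LUX, its DNA-binding subunit, had 1384, 1405 and 1426 in the libraries labelled IAA and 1040, 905 and 997 in mock. Neither gene showed overlap between these groups, and both were called higher, ELF4 by 0.82 (standard error 0.13, limma adjusted p = 0.0555) and LUX by 0.51 (standard error 0.09, adjusted p = 0.0573 by limma). LUX was just past the limit on the fold change and fell under it without mock 2 (0.46) or with a pseudocount of 2 CPM (0.49). ELF3, the scaffold of the complex, had 2635, 2582 and 2611 normalized counts in the IAA-labelled libraries and 1669, 2168 and 2267 in mock. The groups did not overlap, but the log2 fold change of ELF3, 0.37 (unadjusted p 0.0138), was under the limit. BOA, the relative of LUX, had 182, 155 and 198 normalized counts in the libraries labelled IAA and 161, 120 and 178 in mock, with overlap and a 95% confidence interval of the log2 fold change from -0.17 to 0.59. BOA was therefore the only member with an evening element in the printed regions that was not called in this comparison. Of the members without an evening element in the searched windows, PRR3, GI and ELF4 were called and ELF3 and ZTL were not. Gene models on the opposite strand overlap FKF1, ELF3, LUX and BOA, and whether reads were counted by strand is not stated; the log2 fold changes of those neighbours in the table were 0.13 for AT1G68060 (beside FKF1), -0.02 for AT2G25940 (beside ELF3) and -0.06 for AT3G46650 (beside LUX), and none of these was called.

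**Figure D3:**
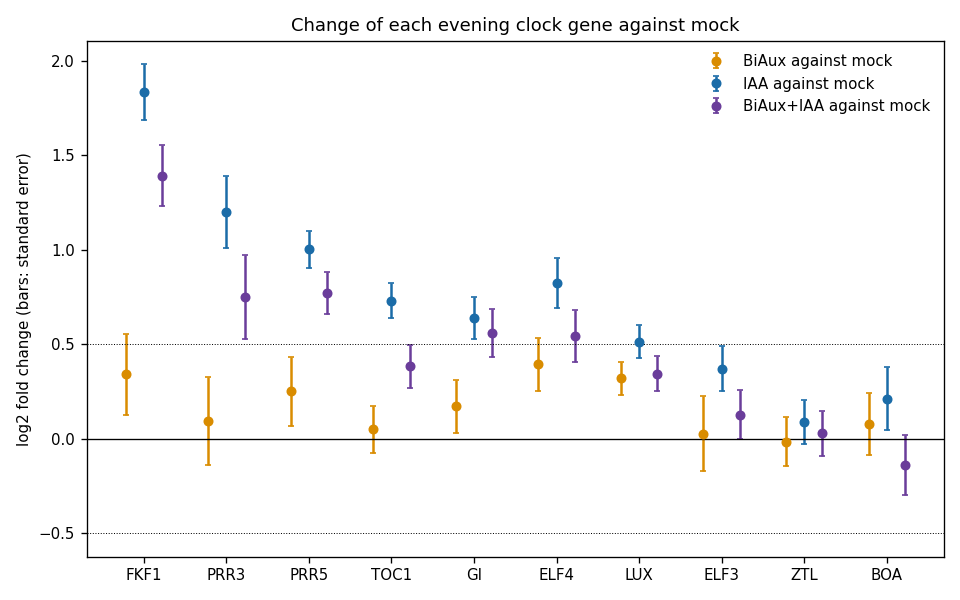
Log2 fold change of each evening clock gene against mock for the libraries labelled BiAux, IAA and BiAux+IAA; bars are standard errors of limma, and dotted lines mark 0.5 and -0.5. FKF1 reaches 1.83 in the libraries labelled IAA and 1.39 in those labelled BiAux+IAA, and no gene passes 0.5 in those labelled BiAux.

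In the libraries labelled BiAux, 0 of 10 evening clock genes were called against mock, where 0.507% of all genes were called higher and 1.08% lower. The 3 comparisons with mock use the same 3 mock libraries, so their values are set side by side only. The median log2 fold change of the members was 0.13, compared with -0.04 over all genes. ELF4 stood at 604, 639 and 551 normalized counts in the libraries labelled BiAux, and LUX at 1230, 1212 and 1232. For these genes alone, thus for 2 of 10 members, all BiAux-labelled libraries lay above all mock libraries, as they did for 3.45% of all genes. ELF4 had a log2 fold change of 0.39 (standard error 0.14, unadjusted p 0.0253, limma adjusted p = 0.981) and LUX one of 0.32 (standard error 0.09, unadjusted p 0.00719, limma adjusted p = 0.638). ELF4 passed the call rule without mock 1, at 0.52. BiAux and mock libraries of the same number deviated together in these values, although the titles state no pairing. With the replicate number as a block, the limma adjusted p of LUX was 0.0275 and that of ELF4 was 0.0739, while 0 members were called.

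FKF1 had 129, 205 and 214 normalized counts in the libraries labelled BiAux and PRR5 had 882, 1355 and 1359. In FKF1 BiAux 1 lay within the mock range and in PRR5 just below it, and in both genes BiAux 2 and 3 lay above all mock libraries. Their log2 fold changes were 0.34 for FKF1 (95% confidence interval -0.16 to 0.85) and 0.25 for PRR5 (-0.18 to 0.68) without the pairing. With the replicate number as a block, the unadjusted p was 0.0113 for FKF1, 0.0134 for PRR5 and 0.0109 for GI, and their limma adjusted p-values were 0.148, 0.159 and 0.146. The number of members with an unadjusted p under 0.05 was thus 5 with the block and 2 without it. Without the block, 822 of the 19338 tested genes had an unadjusted p under 0.05. The share of all genes with the block is not given here, so the rise in this count is not read as particular to the members. BiAux lay above the mock library of the same number in 3 of 3 pairs for FKF1, GI, ELF4 and LUX. This held in 2 of 3 pairs for PRR5, TOC1, PRR3, ELF3 and BOA, and in 1 of 3 for ZTL. The share of all genes with 3 of 3 pairs was not counted. Without BiAux 1, FKF1 was called at 0.55. Without both BiAux 1 and mock 1, a setting chosen after seeing the data, FKF1 stood at 0.43 and PRR5 at 0.38, and ELF4, LUX and PRR5 had limma adjusted p-values of 0.035, 0.0394 and 0.0379; ELF4 was then the 1 member called, at 0.52. TOC1 (1863, 2334 and 2355 normalized counts), PRR3 (72, 98 and 113), GI (3513, 4257 and 4484), ZTL (970, 1183 and 1141), ELF3 (1536, 2401 and 2347) and BOA (168, 169 and 145) overlapped mock. Among them the largest log2 fold change was 0.17, for GI (95% confidence interval -0.16 to 0.50 without the pairing), and the interval of TOC1 ran from -0.24 to 0.34. The interval of PRR3, from -0.45 to 0.64, was the widest of the 10 members.

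With BiAux+IAA, 5 of 10 evening clock genes were called higher than mock and none lower, where 1.87% of all genes were called higher. The median of the members was 0.46, compared with -0.006 over all genes, and 7 of 10 members did not overlap with mock, as was found for 7.28% of all genes in this direction. FKF1 had 394, 439 and 336 normalized counts in the libraries labelled BiAux+IAA and rose by 1.39 (standard error 0.16, limma adjusted p = 0.00729). PRR5 had 1708, 1823 and 1556 and rose by 0.77 (standard error 0.11, limma adjusted p = 0.0161). These were the 2 members with an adjusted p under 0.05, as had 0.377% of all genes among the higher ones. PRR3 (153, 195 and 127 normalized counts, log2 fold change 0.75), GI (5021, 5971 and 5031, 0.56) and ELF4 (709, 648 and 637, 0.54) were called as well, with adjusted p-values of 0.16, 0.0798 and 0.0999 by limma. The call of GI was lost without mock 1 (0.43) or BiAux+IAA 2 (0.48), and that of ELF4 without mock 2 (0.44) or BiAux+IAA 1 (0.497) and with a pseudocount of 2 CPM (0.498). TOC1 (2718, 3073 and 2470 normalized counts) and LUX (1309, 1212 and 1222) lay above all mock libraries, but their log2 fold changes of 0.38 and 0.34 stayed under the limit. ELF3 (2282, 2339 and 2008), ZTL (1170, 1147 and 1068) and BOA (135, 134 and 138) overlapped mock, with log2 fold changes of 0.13, 0.03 and -0.14.

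Compared directly with the libraries labelled BiAux, those labelled IAA gave log2 fold changes above 0 for 10 of 10 evening clock genes, of which 4 were called higher (1.89% of all genes were called higher) and 3 had an adjusted p under 0.05 (0.729% of all genes, higher ones only). These 3 were FKF1 (log2 fold change 1.49 with a standard error of 0.18 and adjusted p = 0.0116 by limma), PRR3 (1.11, standard error 0.15, adjusted p = 0.0185) and TOC1 (0.68, standard error 0.10, adjusted p = 0.0231). PRR5 was called at 0.75 with a limma adjusted p = 0.069. GI was at 0.47 and passed the limit without BiAux 2 (0.50) or BiAux 3 (0.54). Between BiAux+IAA and BiAux alone, FKF1 (1.05), PRR3 (0.66) and PRR5 (0.52) were called, 3 of 10 members where 1.1% of all genes were called higher, and no member had an adjusted p under 0.05; the smallest was 0.0941, for FKF1. PRR5 fell under the limit without BiAux 1 (0.32), without BiAux+IAA 2 (0.47) or with median-of-ratios factors (0.49), and PRR3 did so with a pseudocount of 2 CPM (0.48).

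By the titles, the change with BiAux in the presence of IAA is that from the libraries labelled IAA to those labelled BiAux+IAA. The log2 fold change between BiAux+IAA and IAA was below 0 for 10 of 10 members, with a median of -0.26 compared with -0.015 over all genes, and in 8 of 10 members all BiAux+IAA libraries lay below all IAA-labelled libraries, as was found for 15.7% of all genes. By the call rule, 0 members were called, while 1.89% of all genes were called lower. TOC1, at 2718, 3073 and 2470 against 3620, 3506 and 3349 normalized counts, had a log2 fold change of -0.35 (standard error 0.08, limma adjusted p = 0.0421), and it was the 1 member with an adjusted p under 0.05, which 2.6% of all genes had among the lower ones. FKF1 (-0.44, limma adjusted p = 0.0534) and PRR3 (-0.45, adjusted p = 0.101) had the largest differences. Both passed the limit without BiAux+IAA 2 (-0.53 for FKF1 and -0.60 for PRR3), and FKF1 did so without IAA 3 (-0.50). GI and ZTL overlapped between these groups, with 95% confidence intervals from -0.25 to 0.09 for GI and from -0.22 to 0.10 for ZTL.

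The change with BiAux was therefore set against the presence of IAA as an interaction over all 12 libraries. All 10 members had a value below 0 (ZTL was above 0 without mock 1 or BiAux 2), so that the change with BiAux was lower on the log2 scale when IAA was present, and 6 of 10 had an unadjusted p under 0.05, compared with 3.83% of all genes in this direction. LUX (-0.49, standard error 0.10, unadjusted p 0.000315) and ELF4 (-0.67, standard error 0.16, unadjusted p 0.0012) had the smallest p-values, followed by FKF1 (-0.78, unadjusted p 0.00965), TOC1 (-0.39, 0.0259), PRR5 (-0.48, 0.0363) and BOA (-0.43, 0.0496). After adjustment over all genes, 0 members passed, with a smallest limma adjusted p = 0.371 for LUX, and 0 of 19338 genes passed, of which 1535 had an unadjusted p under 0.05. The number of members under 0.05 was 3 without BiAux 2, without IAA 1 or without BiAux+IAA 3, and 8 without BiAux 1. LUX, ELF4 and FKF1 kept an unadjusted p under 0.05 in every alternative run. Of the 12 runs that each left out a single library, TOC1 lost it in 5, PRR5 in 9 and BOA in 8. BOA also lost it with a pseudocount of 0.1 CPM, with the deposited log2 values or with no filter. Without both mock 1 and BiAux 1, a setting chosen after seeing the data, the number of members with an unadjusted p under 0.05 was 7. The limma adjusted p was then 0.0407 for ELF4 and 0.0411 for LUX and for PRR5. The share of all genes in that setting is not given here.

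**Figure D4:**
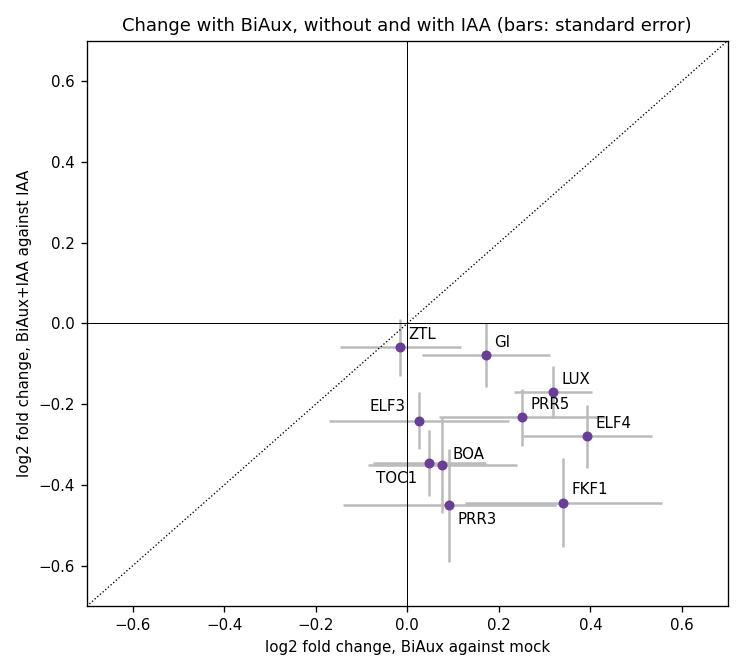
Log2 fold change of each evening clock gene with BiAux by the titles, without IAA (horizontal axis, BiAux against mock) and with IAA (vertical axis, BiAux+IAA against IAA). Bars are standard errors of limma and the dotted diagonal marks equal change. All 10 genes lie below the diagonal, and ELF4 (0.39 and -0.28) and LUX (0.32 and -0.17) lie on opposite sides of 0 on the axes.

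Libraries of the same number were lowest in many of these genes. BiAux 1 was the lowest BiAux-labelled library and mock 1 the lowest mock library for the same 7 of 10 members, namely TOC1, PRR5, PRR3, GI, FKF1, ZTL and ELF3, most of which followed each other across the libraries. ELF4 and LUX were the exceptions among the abundant members, since mock 1 was their highest mock library. Of the 9 root marker genes, 3 (CASP1, EXP7 and PYK10) were highest in library 1 of both groups, 3 (PLT1, SCR and SHR) were lowest there in both, and the other 3 (SMB, WER and WOX5) were neither. EXP7, an expansin gene of root hair cells, had 3389 normalized counts in BiAux 1 and 1907 and 1910 in BiAux 2 and 3, against 3308 in mock 1 and 1957 and 1429 in mock 2 and 3. PLT1, a regulator of the root meristem, had 297, 449 and 402 in the libraries labelled BiAux and 355, 536 and 571 in mock. Whether the make-up of these root samples had a part in the levels of the clock genes was not tested. In the libraries labelled IAA, EXP7 (1589, 1897 and 1543) and PLT1 (443, 397 and 612) overlapped with mock 2 and 3. Against mock, 0 of the 9 root markers were called in the libraries labelled IAA. In those labelled BiAux, 1 was called lower (WOX5, log2 fold change -0.54), as were 1.08% of all genes. In those labelled BiAux+IAA, 2 were called lower (WOX5, -0.71, and SMB, -0.59), as were 3.73% of all genes. No root marker was called higher in these comparisons.

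Across the 12 libraries, most members followed each other. Each member was correlated with the mean standardized log2 value of the other 9, a description over libraries that share groups and for which no test is given. The correlation was 0.962 for TOC1, 0.961 for PRR5, 0.958 for PRR3, 0.946 for FKF1 and 0.906 for GI. It was lower for ELF3 (0.792), LUX (0.764), ELF4 (0.744), ZTL (0.503) and BOA (0.213). Outside the members, the 10 genes most like the mean profile of all members, out of 15218 genes that averaged 5 CPM or more, had correlations between 0.956 and 0.976: AT2G37150, GID1C, CRK3, ABF1, AT4G39270, TRM27, AT3G26020, AT1G27020, GRP7 and CRK29. GRP7, a clock-regulated RNA-binding protein gene, averaged 22499 normalized counts in the libraries labelled BiAux, 39466 in those labelled IAA, 32982 in those labelled BiAux+IAA and 21604 in mock. ABF1, a transcription factor gene of abscisic acid signalling, averaged 880 in the libraries labelled BiAux, 2002 in those labelled IAA, 1489 in those labelled BiAux+IAA and 750 in mock.

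Other clock genes, from lists written with earlier results of these data known, moved with the members or against them. Among genes of the evening and targets of the members, 8 of 11 were tested. The IAA-labelled roots had 3 of them called higher and 1 called lower than mock, where 1.29% of all genes were called higher and 2% lower. JMJ30, a histone demethylase gene co-expressed with TOC1, had 223, 183 and 208 normalized counts in the libraries labelled IAA and 60, 80 and 78 in mock (log2 fold change 1.32), COR28 had 312, 357 and 261 against 111, 124 and 121 (1.26), and COR27 rose by 0.94. CDF1, whose protein is a substrate of FKF1 and GI, had 194, 158 and 194 normalized counts in the IAA-labelled libraries against 312, 248 and 257 in mock, and fell by 0.54. Its transcript fell by 0.71 in the libraries labelled BiAux+IAA, where CDF2 fell by 0.52 and JMJ30 (0.98) and COR28 (0.69) rose. The relatives and partners of the members, among them LKP2 of the ZTL family, gave 0 calls in 10 tested genes in each comparison with mock. Of all genes, between 0.507% and 1.87% were called higher and between 1.08% and 3.73% lower in these comparisons, so this count is not read as particular to them. LKP2 had a log2 fold change of 0.14 in the libraries labelled IAA.

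Several morning clock genes fell in the libraries with higher evening clock genes. In the libraries labelled IAA, 4 of 11 were called lower than mock and none higher, where 2% of all genes were called lower, with a median log2 fold change of -0.38. In those labelled BiAux+IAA, 6 of 11 were called lower and none higher, where 3.73% of all genes were called lower, with a median of -0.52. In those labelled BiAux, 0 of 11 were called and the median was -0.17. LNK3, a coactivator gene of the morning, had 162, 143 and 206 normalized counts in the libraries labelled IAA against 443, 336 and 382 in mock (log2 fold change -1.12), and PRR9 fell by 0.63. CCA1, at 713, 774 and 782 against 1025, 923 and 1013, and LHY, at 1060, 1125 and 1047 against 1459, 1361 and 1339, did not overlap between IAA and mock but had log2 fold changes of -0.38 and -0.36, and both were called lower with BiAux+IAA (-0.57 and -0.52). PRR7, which follows PRR9 in the day, had a log2 fold change of 0.44 in the libraries labelled IAA and was not called.

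**Figure D5:**
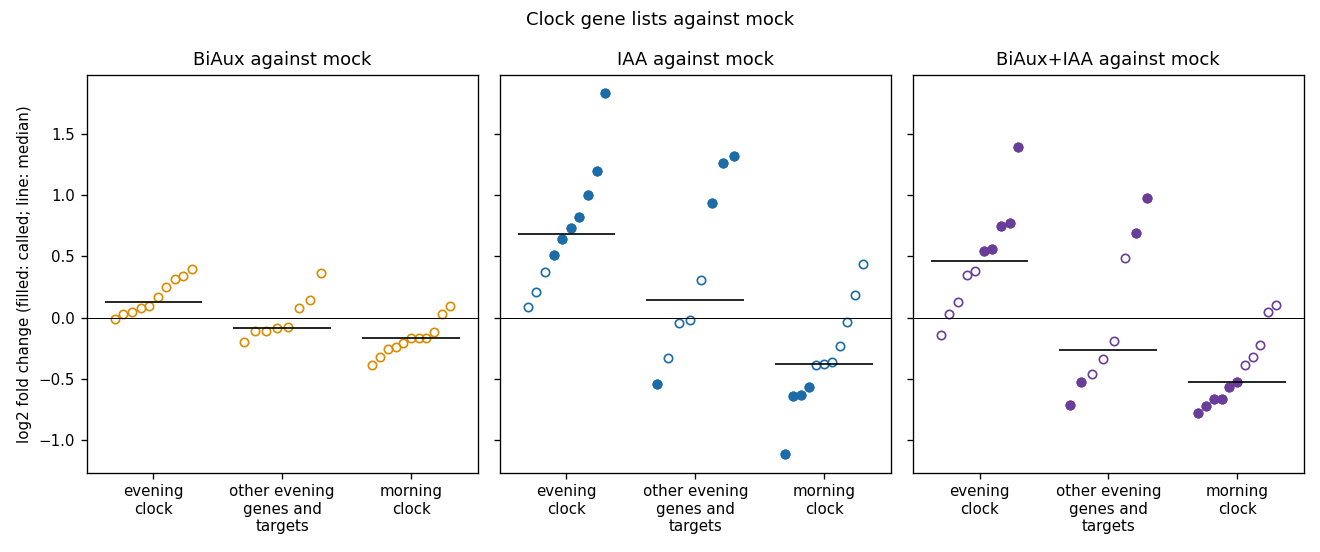
Log2 fold changes against mock of the 10 evening clock genes, of 8 other evening genes and targets and of 11 morning clock genes, in 1 panel for each of BiAux, IAA and BiAux+IAA; filled points were called and black lines are medians. The medians of the evening clock genes are 0.13, 0.68 and 0.46, and those of the morning clock genes -0.17, -0.38 and -0.52.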

How the data were processed

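Poly(A) RNA of roots was sequenced as paired 100-base reads by the study. For the authors' count per Araport11 gene, reads passed FastQC and Trimmomatic and were mapped on TAIR10 by STAR (the labels list HISAT2), HTSeq did the counting, and edgeR followed. The deposited values are log2 of a normalized whole count plus 1; the scaling itself is not given in the sources used here.

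Values were returned to the linear scale and rounded. The filter kept genes averaging 0.5 CPM or more, and log2(value + 16.3), which adds 0.5 CPM and understates changes of weak genes, was tested with limma 3.58.1 (R 4.3.3; lmFit, then eBayes with a trend). Pairwise fits held only the 6 libraries compared, and the interaction used the full set of 12. A call needed a raw p below 0.05 and, outside the interaction, a log2 change beyond 0.5 in size; p-values were also adjusted by Benjamini-Hochberg over all tested genes. The steps were tested on simulated data.

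All 10 members are named; likeness was ranked by Pearson correlation, and the other lists give values for called genes or for genes tied to a member. Members and lists were chosen with earlier results of these data known, and the overlapping neighbours were added after the values were seen. Groups and replicate numbers came from the titles. The sources do not say that libraries came from separate cultures, so p-values measure the spread between these libraries. Deviations of same-numbered BiAux and mock libraries correlated across genes at 0.779, 0.407 and 0.58 for numbers 1, 2 and 3, all above 0.1. In no other comparison did all 3 exceed 0.1. The block for BiAux against mock therefore rests on these same values, since the titles give replicate numbers but state no pairing. With 3 libraries per group, such correlations cannot show that the libraries were paired. Coordinates, exon lengths and upstream sequence came from RefSeq's TAIR10.1, whose gene table held 20694 of the 20814 identifiers. Alternatives were other pseudocounts, filters and scalings, 1 fit of all libraries, the replicate block and leaving out libraries.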

Additional observations from a re-analysis of the deposited data

Results flagged for a closer look

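ELF4 and LUX drew attention because, by the titles, every library moved in opposite ways in the absence and in the presence of IAA. All BiAux-labelled libraries lay above all mock libraries, and all BiAux+IAA libraries lay below all IAA-labelled libraries. The interaction over all 12 libraries gives the size of the difference. Both genes were picked by these same values, so its p-values are no separate support. The share of all genes that meet both conditions was not counted. The change with BiAux in the presence of IAA minus that in its absence was -0.67 on the log2 scale for ELF4 (unadjusted p 0.0012, limma adjusted p = 0.426) and -0.49 for LUX (unadjusted p 0.000315, limma adjusted p = 0.371), so neither passed the adjustment over all genes.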

How the results depend on the processing

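Over the values of the 10 members, 961 alternatives kept direction and side of the threshold, 37 lost a call, 16 gained one and 22 changed sign, all of the last in values close to 0. Leaving out 1 library moved the number of members called to between 0 and 1 for BiAux against mock, between 0 and 2 for BiAux+IAA against IAA and between 3 and 8 for the interaction; without both mock 1 and BiAux 1, a setting chosen after seeing the data, 1 member was called for BiAux against mock. The log2 fold changes that changed sign when 1 library was left out ranged, for BiAux against mock, from -0.0191 to 0.1582 for TOC1, -0.085 to 0.2914 for PRR3, -0.1339 to 0.0701 for ZTL, -0.1096 to 0.2333 for ELF3 and -0.0717 to 0.1841 for BOA. They ranged from -0.0317 to 0.1471 for ZTL in IAA against mock, and in BiAux+IAA against mock from -0.091 to 0.0878 for ZTL and -0.0078 to 0.2112 for ELF3. In BiAux+IAA against BiAux they ranged from -0.0427 to 0.0984 for ZTL, -0.1058 to 0.2137 for ELF3 and -0.0089 to 0.0459 for LUX, and in the interaction from -0.1294 to 0.0745 for ZTL. With median-of-ratios factors, ZTL stood at 0.034 in BiAux against mock and LUX at -0.0023 in BiAux+IAA against BiAux. The cause of these changes was not tested.

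With the replicate number as a block, the replicate block left the number of members called at 0 for BiAux against mock, 7 for IAA against mock, 5 for BiAux+IAA against mock, 0 for BiAux+IAA against IAA, 3 for BiAux+IAA against BiAux, 4 for IAA against BiAux and 6 for the interaction. A filter at a mean of 5 CPM left out PRR3 and BOA, which have no value under it. The number of reads counted in each library is not stated, so the part of counting error in these values cannot be given.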
